A study of Mus musculus with 24 samples.

Results

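Granule cells of the dentate gyrus and pyramidal neurons of areas CA1 and CA3 each switch on genes of their own, and 8 such subfield marker genes were followed across the dorsal hippocampi of 24 mice. They were picked by name, with earlier results of these data known, as 4 markers of the dentate gyrus (Prox1, Dsp, C1ql2 and Lct), 3 of CA1 (Wfs1, Fibcd1 and Pou3f1) and 1 of CA3 (Bok), out of 19661 genes in the deposited table. RNA of the dorsal hippocampus of both sides was sequenced, 1 library per animal, in 4 groups of 6. The 2 genotypes were crossed with 2 conditions to ask how the learning event and the genotype alter expression. Heterozygotes carried the Actl6b<tm1Grc> allele on a B6J.129S6 background and are called Baf53b+/-, after the neuronal chromatin-remodelling subunit that Actl6b encodes. They were either trained, that is killed 30 minutes after a session of Object Location Memory training, or taken from the home cage. Wild-type C57BL/6J mice were likewise either trained or kept in the home cage. The 129S6 strain was named for the heterozygotes alone, so genotype and strain background cannot be told apart.

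The hippocampal circuit runs from dentate granule cells, whose mossy fibre axons contact CA3, to CA3 pyramidal cells, whose axons contact CA1. Dorsal CA1, CA3 and dentate tissue lie folded against each other, and a dissected piece of hippocampus holds RNA of all of them. In RNA from whole tissue, fewer cells of a type and less RNA per cell cannot be told apart, and this applies to every level below.

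Levels are given in RPKM, the reads of a gene corrected for its length and for the read total of the library. Steps in the low values placed depth at 28.4 to 46.9 M reads, so 1 RPKM stood for 28.4 to 46.9 reads per kilobase of transcript. Actl6b checked the genotype labels. It averaged 28.3 ± 1.47 RPKM in trained Baf53b+/- mice against 50.8 ± 2.65 RPKM in trained wild-type mice, and 30.0 ± 1.44 RPKM in home cage Baf53b+/- mice against 51.3 ± 1.26 RPKM in home cage wild-type mice (SD, n = 6 each), with no overlap between genotypes. In 8 of the 24 libraries Ttr, the main transcript of choroid plexus, stood at 185 to 4571.6 RPKM, over 5 times the median of 30.0 RPKM. These were 2 trained Baf53b+/-, 2 home cage Baf53b+/-, 3 trained wild-type and 1 home cage wild-type library. All 8 subfield markers were present in every library, and the lowest value of any of them was 4.18 RPKM, of Dsp.

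The 4 dentate markers carried the main result, so their promoters are shown first. Each is the 300 bases from 250 before to 50 after the gene's start, on the gene's strand, from RefSeq (GRCm38.p6). The windows lie at chr1:190170778-190171077 (minus strand) for Prox1, the first of its listed starts, at chr13:38151044-38151343 (plus strand) for Dsp, at chr1:120340332-120340631 (plus strand) for C1ql2 and at chr1:128328269-128328568 (minus strand) for Lct. Capitals mark every match to any of 4 motifs. The E-box CAGATG reads CATCTG from the opposite strand, the E-box CAGCTG is its own reverse complement, the TATA box TATAAA reads TTTATA and the GC box GGGCGG reads CCGCCC. The E-boxes are forms of one general motif, and no capitals stand for more than one match.
Prox1: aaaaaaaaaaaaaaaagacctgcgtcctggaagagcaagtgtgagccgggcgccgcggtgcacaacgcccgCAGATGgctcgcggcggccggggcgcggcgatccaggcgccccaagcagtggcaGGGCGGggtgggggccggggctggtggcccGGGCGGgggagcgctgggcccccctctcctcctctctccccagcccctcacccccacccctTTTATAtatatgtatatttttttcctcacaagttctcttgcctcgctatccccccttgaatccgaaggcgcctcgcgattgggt
Dsp: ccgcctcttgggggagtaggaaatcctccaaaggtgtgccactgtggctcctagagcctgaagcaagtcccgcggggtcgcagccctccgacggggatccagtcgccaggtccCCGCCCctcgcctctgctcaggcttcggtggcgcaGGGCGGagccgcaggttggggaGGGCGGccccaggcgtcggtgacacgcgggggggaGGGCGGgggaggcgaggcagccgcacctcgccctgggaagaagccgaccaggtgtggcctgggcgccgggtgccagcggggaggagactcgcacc
C1ql2: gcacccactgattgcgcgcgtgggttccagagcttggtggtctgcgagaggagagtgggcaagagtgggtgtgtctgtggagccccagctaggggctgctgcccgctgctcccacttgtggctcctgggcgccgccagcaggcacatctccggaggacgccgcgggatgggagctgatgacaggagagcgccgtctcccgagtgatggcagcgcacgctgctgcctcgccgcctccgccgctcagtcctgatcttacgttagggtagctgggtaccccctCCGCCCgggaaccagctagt
Lct: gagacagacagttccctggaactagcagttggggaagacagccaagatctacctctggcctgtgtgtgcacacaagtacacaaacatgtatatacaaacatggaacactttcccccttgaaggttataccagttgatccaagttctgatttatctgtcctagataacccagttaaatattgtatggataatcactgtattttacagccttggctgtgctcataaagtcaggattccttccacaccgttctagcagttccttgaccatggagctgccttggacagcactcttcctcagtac
The GC box occurred 2 times in the Prox1 window, 4 times in that of Dsp and 1 time in that of C1ql2. None was found in the Lct window, which had 44.7% G and C against 64.3% for Prox1, 73.0% for Dsp and 67.3% for C1ql2. Over all 32851 promoters of the same length the median was 52.7%, and 35.7% held a GC box. The printed Prox1 window also held 1 CAGATG and 1 TATAAA match, which 17.2% and 13.6% of all promoters hold. The window at the second listed start of Prox1, not printed, held 0 of either and 1 GC box. CAGCTG, held by 16.3% of promoters, was in none of the 4 windows, nor was the cyclic AMP response element TGACGTCA, held by 1.79%. None of these 4 promoters shared a marked motif with all of the others.

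Among the dentate markers, the homeobox factor Prox1 (chromosome 1, 191945658 to 191994559, mm9) specifies and maintains granule cell identity. Its lowest, median and highest values were 22.7, 29.2 and 31.6 RPKM in trained Baf53b+/- mice, and 13.3, 28 and 32.1 RPKM in home cage Baf53b+/- mice. They were 19.1, 25.9 and 31.0 RPKM in trained wild-type mice, and 20.6, 30.2 and 33.9 RPKM in home cage wild-type mice. The 4 groups overlapped broadly, and single low animals set the lower end of 3 of them: 2415 in the Baf53b+/- home cage group, 2421 among trained wild-type mice and 2418 in the wild-type home cage group. The lowest trained heterozygote was 2416.

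Dsp (chromosome 13, 38243163 to 38290446) encodes desmoplakin, which anchors intermediate filaments to desmosomes and is used in the hippocampus as a granule cell marker. It had 8.95, 11.7 and 13.2 RPKM as lowest, median and highest value in trained Baf53b+/- mice, and 4.18, 11.1 and 13.9 RPKM in home cage Baf53b+/- mice. The same 3 values were 5.49, 9.49 and 13.4 RPKM in trained wild-type mice, and 6.48, 11.2 and 13.4 RPKM in home cage wild-type mice. The groups overlapped, and the lowest animals were again 2416 among trained heterozygotes, 2415, 2421 and 2418.

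C1ql2 (chromosome 1, 122237159 to 122239751) encodes a secreted protein of the C1q family that granule cells release at mossy fibre synapses. Its values were 39.2, 48.7 and 67.1 RPKM in trained Baf53b+/- mice, and 19.2, 45.8 and 57.6 RPKM in home cage Baf53b+/- mice. Trained wild-type mice had 28.4, 51.0 and 59.0 RPKM, and home cage wild-type mice 35.2, 53.0 and 60.8 RPKM. Animals 2416, 2415, 2421 and 2418 once more were the lowest of their groups, and no 2 groups were apart.

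Lct (chromosome 1, 130181341 to 130224895) encodes lactase, an enzyme of the intestinal brush border whose transcript also marks granule cells. It stood at 12.9, 16.9 and 18.4 RPKM in trained Baf53b+/- mice, and at 6.69, 14 and 17.5 RPKM in home cage Baf53b+/- mice. It stood at 8.34, 14.1 and 18.8 RPKM in trained wild-type mice, and at 9.25, 14.8 and 16.2 RPKM in home cage wild-type mice. The lowest trained heterozygote was here 2409, at 12.9 RPKM, with 2416 next at 14.9 RPKM. In the other 3 groups the lowest animals were the same as for the other dentate markers, and the groups overlapped.

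**Figure D1:**
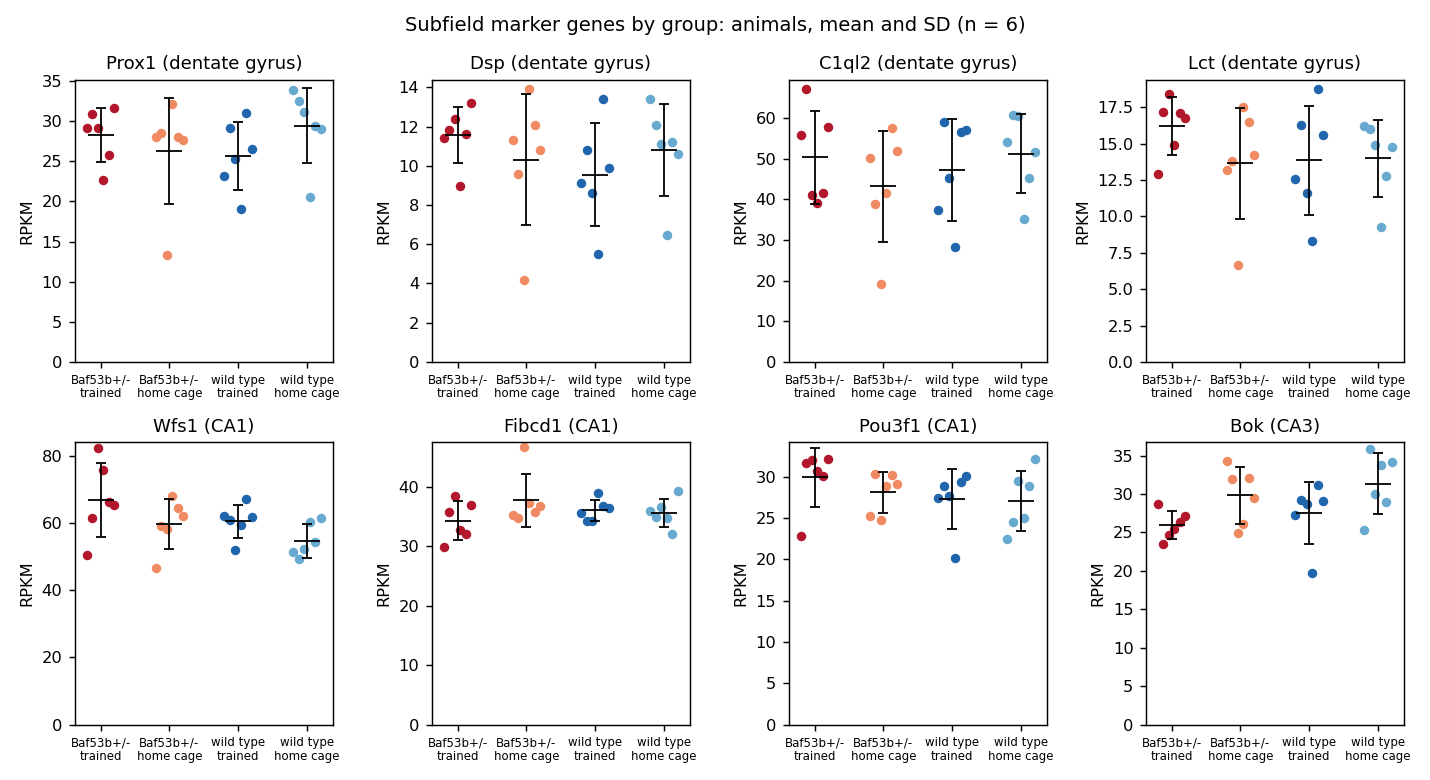
RPKM (vertical axis, from 0) of the 8 subfield markers in the 4 groups. Each point is 1 animal, and the bars give the mean and SD of 6 animals. The groups overlap for every gene, and the dentate markers in the upper row have low points in the same 3 animals, down to 13.3 RPKM for Prox1 and 4.18 RPKM for Dsp in Baf53b+/- home cage animal 2415.

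The CA1 markers were steadier. Wfs1 (chromosome 5, 37357343 to 37380221) encodes wolframin, a membrane protein of the endoplasmic reticulum abundant in CA1 pyramidal cells. Its lowest, median and highest values were 50.5, 65.9 and 82.3 RPKM in trained Baf53b+/- mice, and 46.7, 60.7 and 68.2 RPKM in home cage Baf53b+/- mice. In trained wild-type mice they were 52.0, 61.4 and 67.1 RPKM, and in home cage wild-type mice 49.2, 53.2 and 61.5 RPKM. The groups overlapped, with the highest animal, 2414, and the lowest, 2400, both heterozygous.

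Fibcd1 (chromosome 2, 31668810 to 31701525) encodes a transmembrane protein with a fibrinogen-like domain that binds acetylated sugars. It had 29.8, 34.2 and 38.5 RPKM in trained Baf53b+/- mice, and 34.8, 36.3 and 46.6 RPKM in home cage Baf53b+/- mice. Trained wild-type mice had 34.2, 36.0 and 38.9 RPKM, and home cage wild-type mice 32.1, 35.4 and 39.2 RPKM. The highest animal of all 24 was 2415, the animal lowest in every dentate marker, and the highest trained wild-type animal was 2421, the lowest of its group in those markers.

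Pou3f1 (chromosome 4, 124334889 to 124337899) encodes a POU-domain transcription factor. It stood at 22.8, 31.2 and 32.1 RPKM in trained Baf53b+/- mice, and at 24.8, 29.0 and 30.3 RPKM in home cage Baf53b+/- mice. It stood at 20.1, 28.3 and 30.1 RPKM in trained wild-type mice, and at 22.4, 27.0 and 32.1 RPKM in home cage wild-type mice. Animal 2409 was low among trained heterozygotes and 2421 among trained wild-type mice, and the groups overlapped.

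The CA3 marker Bok (chromosome 1, 95582271 to 95592339) encodes a member of the Bcl-2 family of cell death regulators. Its values were 23.5, 25.9 and 28.7 RPKM in trained Baf53b+/- mice, and 24.9, 30.8 and 34.3 RPKM in home cage Baf53b+/- mice. Trained wild-type mice had 19.7, 28.9 and 31.2 RPKM, and home cage wild-type mice 25.3, 31.9 and 35.9 RPKM. In each genotype all 6 trained animals lay below the median of the home cage animals, though the ranges overlapped.

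RPKM is scaled by gene length, so levels can be set side by side. In mean RPKM over the 24 animals the order was Wfs1 (60.6), C1ql2 (48.1), Fibcd1 (35.9), Bok (28.7), Pou3f1 (28.1), Prox1 (27.4), Lct (14.4) and Dsp (10.6). Prox1 was above Lct, and Lct above Dsp, in 24 of 24 animals. Fibcd1 was above Bok in 23 animals and C1ql2 above Fibcd1 in 22, while Wfs1 exceeded C1ql2 in 18. Bok, Pou3f1 and Prox1 were not separated beyond their spread, with Bok above Pou3f1 in 15 of 24 animals and Pou3f1 above Prox1 in 15.

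The dentate markers varied more between animals of a group than most genes did. On the log2(RPKM + 0.5) scale the SD within groups was 0.30 for Prox1, 0.40 for Dsp, 0.41 for C1ql2 and 0.36 for Lct, against a median of 0.09 over the 12399 genes tested. Between 96.7% and 98.3% of genes had a lower SD than these 4. The SD was 0.18 for Wfs1, 0.18 for Pou3f1 and 0.18 for Bok, above that of 87.7% to 88.4% of genes. Fibcd1, at 0.12, exceeded 69.2% of genes. Animal 2415 lay 1.11 below the mean of all animals when the 4 dentate deviations were averaged on the log2 scale (-1.11), 2421 stood at -0.69 and 2418 at -0.49. The mean deviation of the 3 CA1 markers in these animals was 0.06, -0.12 and -0.06.

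**Figure D2:**
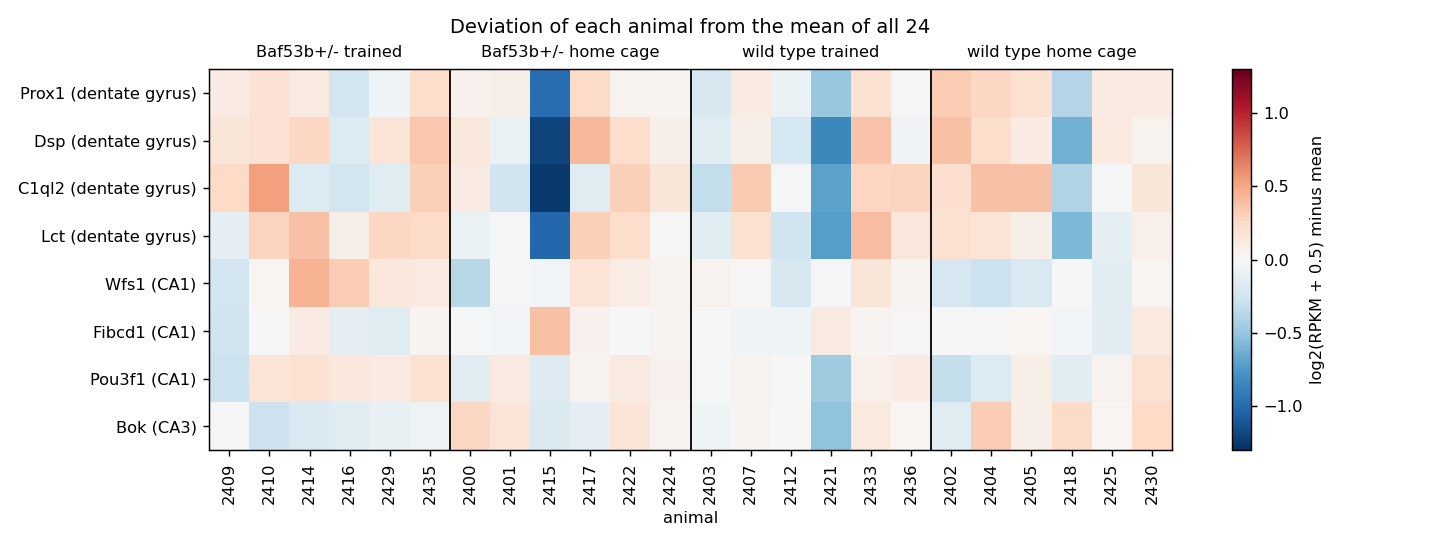
Deviation of each animal (columns, by group) from the mean of all 24 on the log2(RPKM + 0.5) scale, for the 8 markers (rows). The 4 dentate rows are blue together in animals 2415, 2421 and 2418, with a mean dentate deviation of -1.11, -0.69 and -0.49, while the CA1 rows of these animals do not follow as a block.

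The first question was whether training or genotype altered the markers. Of the 8, none passed limma's moderated test at a Benjamini-Hochberg adjusted p of 0.05 over all 12399 genes in any of the 7 comparisons. Training called 1.03% of all genes in Baf53b+/- mice, 1.08% in wild-type mice and 4.17% averaged over genotypes. Genotype called 0.00807% of genes after training, 0.00807% in the home cage and 0.0242% averaged over conditions, and the interaction called 0%. At an unadjusted p under 0.05 there was 1 marker for training in Baf53b+/- mice, 2 for training averaged over genotypes and 0 in each of the other 5 comparisons. The share of all genes at that level was 11% for training in Baf53b+/- mice, 11.1% in wild-type mice and 16.8% for the average. It was 3.69% for genotype after training, 3.52% for genotype in the home cage, 4.49% for genotype averaged over conditions and 2.49% for the interaction.

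The closest to a call was Bok. It averaged 26.0 ± 1.83 RPKM in trained and 29.8 ± 3.66 RPKM in home cage Baf53b+/- mice, and 27.5 ± 4.03 RPKM in trained and 31.4 ± 3.95 RPKM in home cage wild-type mice (SD, n = 6 each). The log2 difference, trained minus home cage, was -0.19 in Baf53b+/- mice (SE 0.10, exact permutation p = 0.0519, two-sided) and -0.19 in wild-type mice (SE 0.10, exact permutation p = 0.143). In the average over genotypes it was -0.19 (SE 0.07, limma adjusted p = 0.139), and 1 of 12 trained animals lay above the home cage median. Wfs1 averaged 67 ± 11.1 RPKM in trained and 59.8 ± 7.38 RPKM in home cage Baf53b+/- mice, and 60.6 ± 4.96 RPKM in trained and 54.8 ± 5.06 RPKM in home cage wild-type mice. Its averaged log2 difference was 0.15 (SE 0.07, limma adjusted p = 0.262), with 10 of 12 trained animals above the home cage median. Neither difference passed.

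Fibcd1 was the 1 marker under an unadjusted p of 0.05 for training within a genotype. It averaged 34.3 ± 3.29 RPKM in trained and 37.7 ± 4.44 RPKM in home cage Baf53b+/- mice, a log2 difference of -0.14 (SE 0.06, unadjusted limma p = 0.0479, limma adjusted p = 0.451, exact permutation p = 0.143). Animal 2415 sat in the home cage group of this comparison, and the difference was -0.07 without 2415 and 2421. In wild-type mice the difference was 0.02 (SE 0.06), and the interaction, Baf53b+/- response minus wild-type response, was -0.15 (SE 0.09, limma adjusted p = 0.985).

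The dentate markers had wide intervals. In Baf53b+/- mice the training difference was 0.14 for Prox1 (95% interval -0.20 to 0.49) and 0.27 for C1ql2 (-0.21 to 0.75). In wild-type mice it was -0.19 for Prox1 (-0.53 to 0.15) and -0.14 for C1ql2 (-0.62 to 0.34). The median over the 4 dentate markers was 0.25 for training in Baf53b+/- mice, -0.16 for training in wild-type mice, 0.20 for genotype after training and -0.15 for genotype in the home cage. The median over all genes was 0 in Baf53b+/- training, 0.01 in wild-type training and 0 in both genotype comparisons. The 3 lowest dentate libraries fell in 3 different groups. Leaving out 2415 and 2421 brought the Prox1 differences to -0.04 for training in Baf53b+/- mice, -0.11 for training in wild-type mice, 0.06 for genotype after training and -0.01 for genotype in the home cage. In the Baf53b+/- training comparison Dsp then differed by 0.00, C1ql2 by 0.06 and Lct by 0.10. The dentate medians became 0.03 for training in Baf53b+/- mice, -0.025 for training in wild-type mice, 0.095 for genotype after training and 0.05 for genotype in the home cage. None of these values shows that the groups were alike, since the intervals are wide.

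Wider lists of subfield markers gave the same count. Of 15 other dentate markers, 6 other CA1, 8 other CA3 and 9 CA2 markers, limma called 0 in each of the 7 comparisons. For training in Baf53b+/- mice all 15 dentate genes had a positive difference, with a median of 0.12 and 2 at an unadjusted p under 0.05, while 49.3% of all genes were positive. For training in wild-type mice 3 of the 15 were positive, with a median of -0.08 and 0 at that level, beside 57% of all genes. In the interaction all 15 were positive with a median of 0.20, beside 44.2% of all genes, and 1 was at an unadjusted p under 0.05. Leaving out 2415 and 2421, 8 of the 15 were positive for training in Baf53b+/- mice with a median of 0.02, 3 in wild-type mice with a median of -0.06 and 12 in the interaction with a median of 0.05. The dentate genes varied together between animals, as described next, so their shared signs are not 15 separate observations. Among the 8 other CA3 genes, 1 was positive for training in wild-type mice, with a median of -0.14 and 3 at an unadjusted p under 0.05. In Baf53b+/- mice 2 were positive, with a median of -0.06 and 1 at that level. Averaged over genotypes 1 was positive, beside 52.7% of all genes, with a median of -0.10 and 1 at that level. The share of all genes at that level was 11.1% for training in wild-type mice, 11% in Baf53b+/- mice, 16.8% averaged and 2.49% for the interaction. The CA3 medians without 2415 and 2421 were -0.12 in wild-type mice, -0.06 in Baf53b+/- mice and -0.09 averaged.

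The second question was whether the markers varied together between animals. Levels were centred on the mean of each group, so that no difference between groups entered, and all 28 pairs of the 8 markers were compared over 24 animals. A pair was called when limma, with the groups and 1 gene's level as terms, called the other gene over all 12398 other genes in both directions. All 6 pairs of dentate markers were called, with a Pearson r of 0.80 to 0.97 and a median of 0.88. Of the other 22 pairs none was called in both directions.

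Prox1 and Dsp had r = 0.97 and Spearman's rho = 0.88 (permutation p = 1e-05 for each, the smallest that the 100000 draws can give; limma adjusted p = 1.92e-10 or lower). Of all 12398 genes Prox1 was the one most like Dsp, and Dsp ranked 2 for Prox1. In the 4 groups taken singly, r was 0.89 to 0.99. Without 2415 and 2421, the 2 animals farthest from the Prox1 median, r was 0.92. Dsp and Lct had r = 0.94 and rho = 0.86 (permutation p = 1e-05 and 2e-05), and r = 0.85 without those animals. Prox1 and Lct had r = 0.90 and rho = 0.78 (permutation p = 5e-05 and 9e-05), and 0.76 without them. Among trained Baf53b+/- mice, the group with none of the 3 lowest animals, r of Prox1 and Lct was 0.25.

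C1ql2 followed the other dentate markers less closely. Its r was 0.87 with Prox1 (rho = 0.69, permutation p = 7e-05 and 0.00059), 0.84 with Dsp (rho = 0.70, permutation p = 0.00018 and 0.00077) and 0.80 with Lct (rho = 0.67, permutation p = 0.00044 and 0.00153). With 2415 and 2421 left out these were 0.70, 0.59 and 0.51, and no pair with C1ql2 was called in both directions. C1ql2 passed with Prox1 as the term (limma adjusted p = 0.0237), while Prox1 with C1ql2 as the term did not (0.173). For Dsp and C1ql2 the limma adjusted p were 0.086 and 0.338, and for C1ql2 and Lct 0.409 and 0.139. Thus 3 of the 6 calls rested on those 2 animals. In trained Baf53b+/- mice r of C1ql2 and Lct was -0.12, where animal 2414 had the highest Lct value of the group and one of the lower C1ql2 values, 41.0 RPKM.

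**Figure D3:**
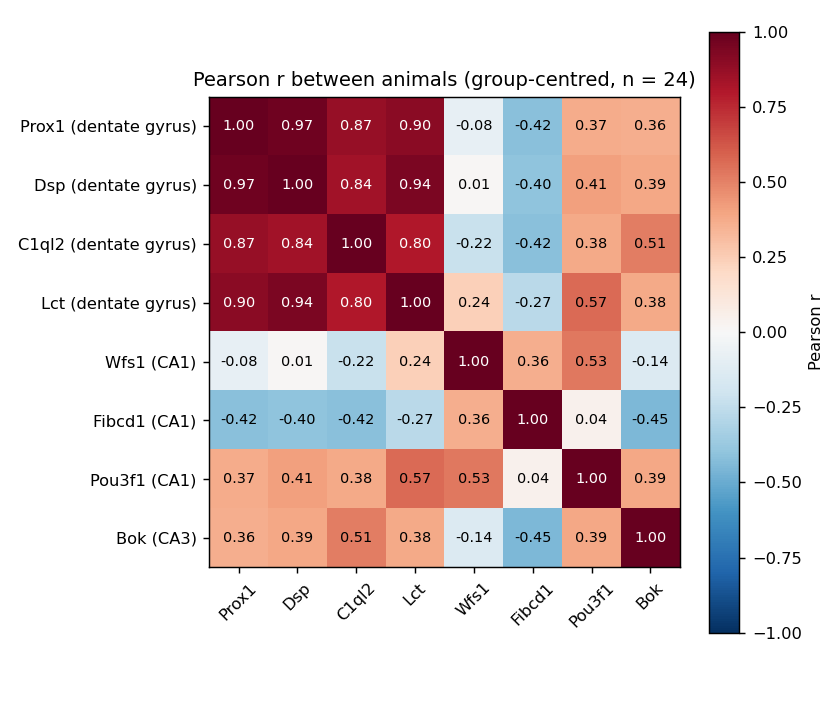
Pearson r between the 8 markers over 24 animals, on group-centred log2(RPKM + 0.5) values, with the colour scale running from -1 to 1. The dentate block at the upper left holds values of 0.80 to 0.97, and the 22 other pairs run from -0.45 to 0.57.

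The CA1 markers formed no such block. Wfs1 and Pou3f1 had r = 0.53 (rho = 0.47, permutation p = 0.0102 and 0.0271; limma adjusted p = 0.473 and 0.117), and 0.50 without the 2 animals farthest from the Wfs1 median. Wfs1 and Fibcd1 had r = 0.36, and Fibcd1 and Pou3f1 r = 0.04. Between the dentate and CA1 markers r ran from -0.42 to 0.57 over 12 pairs with a median of -0.04. The highest was Lct with Pou3f1 (rho = 0.49, permutation p = 0.00394 and 0.0254), which passed in 1 direction (limma adjusted p = 0.0242) and not in the other (0.0852), and was 0.35 without 2415 and 2421.

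Fibcd1 had negative coefficients with all 4 dentate markers, between -0.42 and -0.27 (permutation p = 0.0926 to 0.229). Spearman's rho was between -0.12 and 0.11. The Pearson coefficients turned positive, 0.16 to 0.50, without 2415 and 2421, so the negative sign rested on those animals. Bok had r = 0.36 to 0.51 with the dentate markers and -0.45 with Fibcd1 (rho = -0.42, permutation p = 0.0191 and 0.0463; limma adjusted p = 0.218 and 0.292). Without 2415 and 2421 r of Bok lay between -0.25 and 0.11 with the dentate markers.

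**Figure D4:**
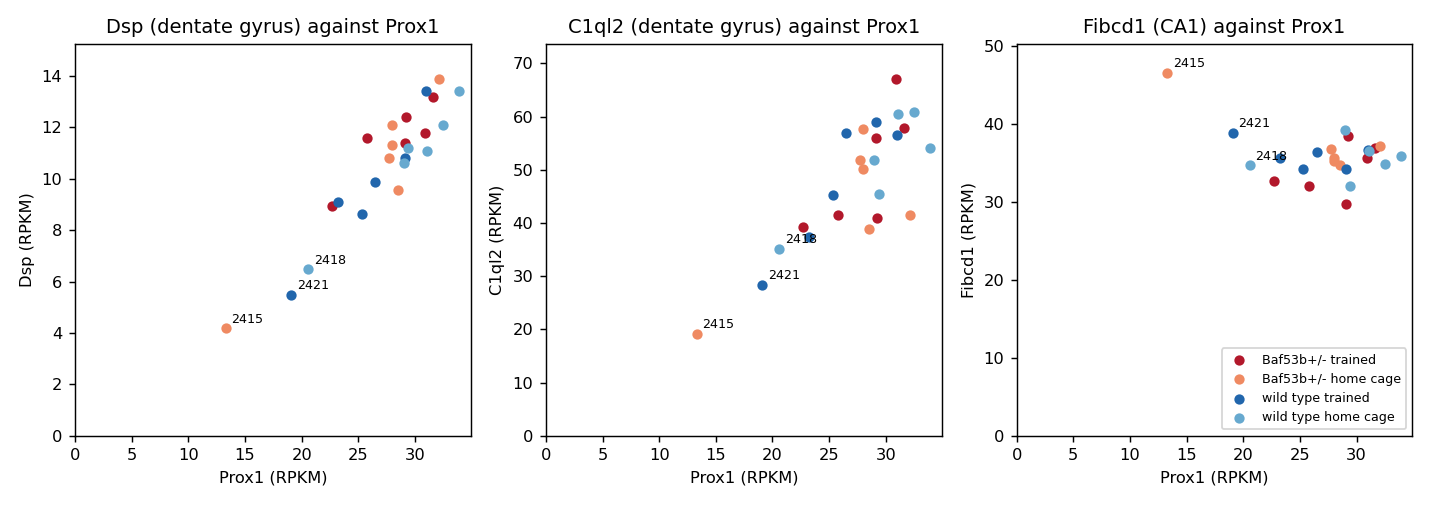
Dsp, C1ql2 and Fibcd1 (vertical axes, RPKM) against Prox1 (horizontal axis, RPKM), 1 point per animal, coloured by group, with all axes from 0. Dsp follows Prox1 along the whole range (r = 0.97), C1ql2 with more scatter (r = 0.87), and Fibcd1 stands at 46.6 RPKM in animal 2415 and between 29.8 and 39.2 RPKM in all other animals.

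Each dentate marker also varied together with a large part of the transcriptome. With Prox1, limma called 7.81% of 12398 genes in the same direction and 9.16% in the opposite one, and all 3 other dentate markers were among the first. With Dsp the shares were 8.52% and 10%, with C1ql2 5.87% and 6.32%, and with Lct 8.31% and 10.3%, each again with all 3 other dentate markers in the same direction. The CA markers had few such genes. Wfs1 had 0% and 0%, Fibcd1 0.0403% and 0.0403%, Pou3f1 1.35% and 1.61%, and Bok 0.153% and 0.202%. With these libraries reduced to 22 by leaving out 2415 and 2421, the Prox1 shares were 2.39% and 1.39%. That is 296 genes against 968 in the same direction and 172 against 1136 in the opposite one. Without the 8 Ttr-rich libraries the Prox1 shares were 7.18% and 8.11%.

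The genes most like each marker were taken by the highest r over the 24 animals. For Prox1 they were Sema5a (r = 0.97), which encodes a transmembrane semaphorin, Dsp (0.97) and Lhfpl2 (0.96). Sema5a stood at 11.7 RPKM in 2415, 15.6 RPKM in 2421 and 16.6 RPKM in 2418, and between 19.4 and 25.7 RPKM in the other 21 animals. For Dsp they were Prox1 (0.97), Kbtbd11 (0.96) and Plekha2 (0.96). For C1ql2 they were Mcm6 (0.91), a subunit of the replicative helicase, Kctd4 (0.89) and Hpdl (0.88). For Lct they were Slc8a2 (0.96), a sodium-calcium exchanger, the kinase Camkk1 (0.95) and the basic helix-loop-helix factor Bhlhe22 (0.95). All of these passed (limma adjusted p = 7.12e-05 or lower).

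Likeness to the CA markers was looser. The highest r with Wfs1 were those of Plekhn1 (0.78), the neuropeptide gene Cck (0.74) and the chemokine gene Cx3cl1 (0.74), none of which passed (limma adjusted p = 0.336 for each). With Fibcd1 they were Grid1 (0.82, adjusted p = 0.0554), a delta glutamate receptor gene that did not pass, and Ptpru (0.81) and Fam189a1 (0.79), which did. Animal 2415, the highest in Fibcd1, was also the highest in each of these genes. Ptpru stood at 14.5 RPKM there and at most at 11.2 RPKM elsewhere, and Fam189a1 at 31.5 RPKM against at most 28.4 RPKM. Whether these genes follow Fibcd1 without 2415 was not tested. The highest r with Pou3f1 were those of Sec14l1 (0.85), Git1 (0.83) and Arhgef10l (0.83). With Bok they were Cldn22 (0.81), 2810030E01Rik (0.80) and Orai3 (0.79), a store-operated calcium channel subunit. The genes named for Pou3f1 and Bok passed.

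Further markers of the dentate gyrus moved with Prox1. All 15 listed genes had a positive r, with a median of 0.80 against -0.02 over all genes, and 14 passed limma. They included Stxbp6 (r = 0.94), Npnt (0.93), which encodes the matrix protein nephronectin, the guanine exchange factor gene Dock10 (0.92) and the factor Rfx3 (0.92). Stxbp6 stood at 24.6 RPKM in 2415, 32.1 RPKM in 2421 and 33.2 RPKM in 2418, against 35.4 to 49.5 RPKM in the other 21 animals, so these 3 were the lowest. The 1 listed gene that did not pass was Calb1, a calcium buffer known in granule cells and in other neurons (r = 0.34, adjusted p = 0.275), named here after its values were seen. Once 2415 and 2421 were left out all 15 were still positive, with a median of 0.73, and 9 passed. Summed over the list, the level ranged from 209 to 259 RPKM in trained Baf53b+/- mice, 156 to 241 RPKM in home cage Baf53b+/- mice, 201 to 250 RPKM in trained wild-type mice and 186 to 254 RPKM in home cage wild-type mice.

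Several markers of other cells and regions went against Prox1. All 10 interneuron markers had a negative r, with a median of -0.59, and 6 passed, among them Sst (-0.83), which is also on the list of hilar cells, Lhx6 (-0.83), Vip (-0.82) and the vesicular GABA transporter gene Slc32a1 (-0.63). Sst, which encodes the neuropeptide somatostatin, stood at 555 RPKM in 2415, 450 RPKM in 2421 and 416 RPKM in 2418, against 278 to 425 RPKM in the other 21 animals. The summed interneuron level was 664 to 748 RPKM in trained Baf53b+/- mice, 609 to 951 RPKM in home cage Baf53b+/- mice, 666 to 796 RPKM in trained wild-type mice and 593 to 777 RPKM in home cage wild-type mice. Animal 2415 had the highest sum, 951 RPKM, and no listed gene was at 0 in all animals. The median r was -0.49 without 2415 and 2421, and 1 of the 10 passed.

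Of 10 neocortical markers tested, 4 passed with a negative r and 2 with a positive one, and the median was -0.48. The negative ones were Cux2 (-0.79), Ctgf (-0.79), Fezf2 (-0.70) and Rprm (-0.53). Fezf2, a factor of deep cortical layers, stood at 25.4 RPKM in 2415, 22.7 RPKM in 2421 and 15.2 RPKM in 2418, against 11.8 to 17.5 RPKM in the other 21 animals, so 2415 and 2421 were above all others and 2418 was not. The positive ones were Bcl11b (0.82), which granule cells are also known to express, and Rasgrf2 (0.77). Neocortical levels were summed over the 11 listed genes with values, tested or not. The sums were 114 to 141 RPKM in trained Baf53b+/- mice and 114 to 147 RPKM in home cage Baf53b+/- mice. They were 117 to 151 RPKM in trained wild-type mice and 114 to 130 RPKM in home cage wild-type mice. No listed gene was at 0 in all animals. Without 2415 and 2421, 1 passed with a negative and 2 with a positive r.

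All 8 ventral hippocampal and subicular markers tested had a negative r (median -0.42). Only 1 of them passed, or 12.5% beside 9.16% of all genes, namely Nr2f2 (-0.75), a nuclear receptor gene. The summed level was taken over all 10 listed genes with values, tested or not. It was 44.4 to 59.4 RPKM in trained Baf53b+/- mice and 43.7 to 87.4 RPKM in home cage Baf53b+/- mice. It was 38.2 to 108 RPKM in trained wild-type mice and 38.7 to 57.5 RPKM in home cage wild-type mice. The 2 highest sums were those of 2421, 108 RPKM, and 2415, 87.4 RPKM, while 2418 had 40.4 RPKM. Among further CA1 markers, Nov (-0.81) and Mpped1 (-0.77) passed with a negative r. Nov, which encodes a secreted matricellular protein, stood at 80.9 RPKM in 2415 and 61.4 RPKM in 2421, above the 24.1 to 44.3 RPKM of the other 21 animals, and at 36.5 RPKM in 2418. Without 2415 and 2421 none of these ventral or CA1 markers passed. The part that dissection or any of these cell populations has in the co-variation of the dentate markers was not tested.

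For the remaining lists the shares over all genes are again 7.81% with a positive and 9.16% with a negative r. Of 8 further CA3 markers 1 (12.5%) passed with a positive r and 2 (25%) with a negative one. Of 9 CA2 markers 2 (22.2%) passed in each direction. The 11 oligodendrocyte markers lay between 0.01 and 0.10 and none passed, and of the 14 choroid plexus markers tested, with a median of 0.18, none passed. When 2415 and 2421 were left out all 11 oligodendrocyte markers were negative, between -0.31 and -0.23, and so were all 14 choroid plexus markers, with a median of -0.11, so the signs of both lists rested on those animals; again none passed. Microglial markers also gave 0 calls of 10 and markers of immature neurons 0 of 5. Of 10 astrocyte markers 2 (20%) passed with a negative r, as did 2 of 10 endothelial and mural markers (20%). So did 2 of 8 mossy cell and hilar (25%) and 1 of 10 thalamic and habenular markers (10%). Of 7 striatal and septal markers 1 (14.3%) passed with a positive r. Without 2415 and 2421 no CA3, CA2, astrocyte, endothelial and mural or thalamic and habenular marker passed. In that fit 1 mossy cell and hilar marker and 1 striatal and septal marker passed, each with a negative r. Ttr itself had r = 0.17 to 0.31 with the dentate markers and -0.58 with Fibcd1, and library depth had r = 0.21 to 0.27 and -0.41. Sex, read from Ddx3y, had r = 0.46 with Pou3f1 and 0.43 with Wfs1, both higher in males, and 0.05 to 0.22 with the dentate markers. The home cage Baf53b+/- group held 5 males and 1 female, and each other group 3 males and 3 females. Training in Baf53b+/- mice and genotype in the home cage were thus unbalanced for sex. All 6 dentate pairs were called with the choroid plexus level as a term, with sex as a term and without the Ttr-rich libraries. The part of depth in these values was not tested.

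**Figure D5:**
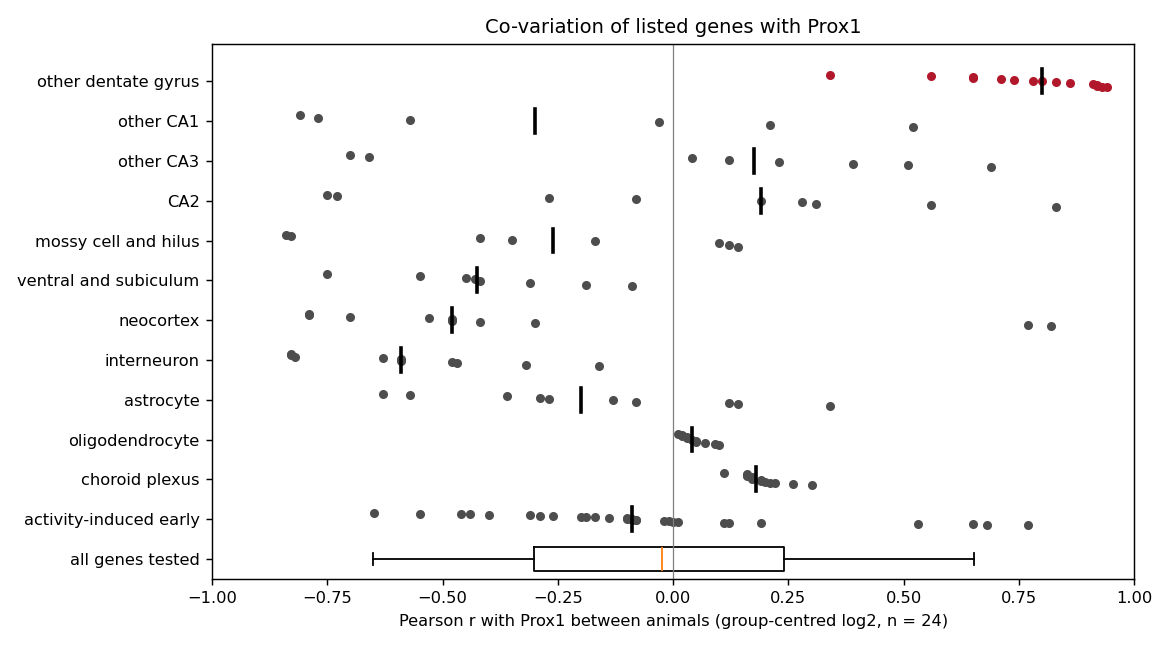
Pearson r with Prox1 over 24 animals (horizontal axis, group-centred log2 values) for the genes of each marker list. Each point is 1 gene, black bars are medians, and the box at the bottom gives the quartiles of all genes tested with whiskers from the 5th to the 95th percentile. Other dentate markers lie between 0.34 and 0.94, interneuron markers between -0.83 and -0.16, and oligodendrocyte markers between 0.01 and 0.10.

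Activity-induced early genes, whose transcription follows neuronal firing, were also set against Prox1 within groups. Of 29, 4 passed with a positive r, Jun (0.77), Egr3 (0.68), the neurotrophin gene Bdnf (0.65) and Btg2 (0.53), and 2 with a negative one, Nr4a2 (-0.65) and Fosl2 (-0.55). That is 13.8% and 6.9% of the list, beside 7.81% and 9.16% of all genes. Without 2415 and 2421, 1 (3.45%) passed with a positive and 0 with a negative r, beside 2.39% and 1.39% of all genes. Fos (-0.10) and Arc (-0.01), chosen after their values were seen, had coefficients near 0.

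Prox1 was then entered as a term in the group comparisons. Averaged over genotypes, training called 697 genes with this term and 517 without it, and all 517 were among the 697. In Baf53b+/- mice it called 137 against 128, of which 118 were shared, and in wild-type mice 167 against 134, of which 120 were shared. Genotype called 2 genes against 1 after training, 1 against 1 in the home cage and 3 against 3 averaged over conditions. The interaction called 0 genes with the term and 0 without it, with 309 genes at an unadjusted limma p under 0.05 in the fit without it. None of the other 7 subfield markers was called with Prox1 in the model.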

How the data were processed

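RNA of 24 dorsal hippocampi was sequenced with 50-cycle single-end reads from TruSeq RNA v2 libraries, a kit that does not keep strand, pooled in 4 multiplexes, per the labels' protocols. No label ties an animal to its pool, so no batch was fitted. The submitters' processing notes name Bowtie 0.12.8, CASAVA 1.8.2 and the mm9 build. RPKM values of 19661 genes were deposited by the authors, 1 column per animal. Of the annotation and of reads shared between genes nothing is stated in the labels. None of the 276 pairs of libraries was identical. Each replicate number is taken to be 1 animal, which the labels do not spell out.

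Depth was recovered from 979 single-exon genes with up to 30 reads: at the total taken, 47.4% to 57.4% of values came within 0.05 of a whole read, against 8.2% or less in the median over other totals. It is an estimate, and reads per gene were not recovered for genes with several exons, so no count test was run.

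Tests used log2(RPKM + 0.5) of 12399 genes whose mean reached 1 RPKM. All 8 markers passed this filter. limma 3.58.1 in R 4.3.3 fitted the 4 groups in 1 model, with a mean trend and robust settings, and Benjamini-Hochberg adjustment over all genes (threshold 0.05). Log2 differences are on this scale, trained minus home cage and Baf53b+/- minus wild type. Exact permutation tests used the 924 splits of 6 against 6 animals and can give no p below 0.00216. Co-variation was fitted with groups and 1 marker's level as terms. Permutation tests drew 100000 times within groups. Both fits were run on simulated data with independent noise for each gene. That run does not show how the fits behave where noise is shared between genes.

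The 8 markers and the gene lists were chosen with earlier results of these data known. Named beside them are Actl6b, the 3 genes with the highest r for each marker and, per list, up to 4 genes that passed, or 2 by p where none did. The alternatives were other pseudocounts, filters, scalings and spread models, fits of 2 groups, choroid plexus or sex terms, leaving out Ttr-rich libraries and leaving out each animal. The Prox1 term and the fit without 2415 and 2421 were added after seeing the data. Sequences came from RefSeq (GRCm38.p6), which matched 7 of the 8 markers. The promoter of Pou3f1 was not analysed here. Python 3.11.15, scipy 1.17.1 and matplotlib 3.10.9 were used.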

Additional observations from a re-analysis of the deposited data

Results flagged for a closer look

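In a group of 6 animals a value was singled out when the gap between the extreme animal and its nearest neighbour was a larger part of the group's range than Dixon's 95% critical value. This marked 6 of 32 gene and group combinations, where chance marks about 1 in 20. The 8 genes were read in the same animals and some varied together. The combinations are thus not separate observations, and the count is no test against chance. Prox1 was low in Baf53b+/- home cage animal 2415, at 13.3 RPKM with the next animal at 27.7 RPKM, and in wild-type home cage animal 2418, at 20.6 RPKM with the next at 29.0 RPKM. Fibcd1 was high in 2415, at 46.6 RPKM with the next at 37.2 RPKM. Pou3f1 was low in trained Baf53b+/- animal 2409, at 22.8 RPKM with the next at 30.1 RPKM, and in trained wild-type animal 2421, at 20.1 RPKM with the next at 27.4 RPKM. Bok was low in the same animal 2421, at 19.7 RPKM with the next at 27.3 RPKM. Animal 2409 had 2260.7 RPKM of Ttr, and animals 2415, 2418 and 2421 had 7.8, 27.9 and 21.3 RPKM.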

How the results depend on the processing

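No paired analysis was possible because no replicate number occurs in 2 groups. In none of the 7 comparisons was any of the 8 markers called under any alternative run. Of 2041 log2 differences of the markers recomputed under an alternative, 80 changed sign, none of them called before or after. The number of called marker pairs was 6, with 6 to 7 when single animals were left out and 6 under other pseudocounts, scalings and filters, with a choroid plexus or sex term and without the Ttr-rich libraries. Without animals 2415 and 2421 it was 3: the pairs among Prox1, Dsp and Lct. Lct with Pou3f1 was the 7th pair without wild-type home cage animal 2402 (r = 0.68, limma adjusted p = 0.0298). Bok's training difference averaged over genotypes ranged from -0.22 to -0.14 when single animals were left out (limma adjusted p = 0.0689 to 0.231), and that of Wfs1 from 0.11 to 0.19. With single animals left out, training called 96 to 142 genes in Baf53b+/- mice, 92 to 160 in wild-type mice and 415 to 541 averaged. Without the Ttr-rich libraries it was 48 in Baf53b+/- mice, 38 in wild-type mice and 150 averaged, and with a mean of at least 5 RPKM it was 84, 83 and 339. Fits of the 2 groups alone called 85 and 75. Counting error at 28.4 to 46.9 M reads was not separated from the spread between animals.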
